A study of Mus musculus with 28 samples.

Results

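The genes described here are 10 members of the p53 pathway, Cdkn1a, Trp53, Mdm2, Ccng1, Btg2, Sesn1, Plk2, Phlda3, Trp53inp1 and Bbc3, out of 24391 gene symbols in the count table. They were picked by symbol, and all 10 were found and passed the filter on low counts in every fit. Cdkn1a was chosen by its higher level after running in total lysate, so its values in that comparison are a description, its passing the threshold there restates the choice, and no p is given for it. The question put to the other 9 was whether that rise came with other p53 targets. The data were read counts of poly(A) RNA from the motor cortex of 14 mice, all of the genotype Cx3CR1-Cre/TRAPfl, home cage animals included. Of these, 7 stayed in the home cage as the baseline and 7 were exercised on a rotarod, a rotating rod that forces walking, during 1 h and then sampled. Each condition held 4 mice of cohort 1 and 3 mice of cohort 2, the batches named in the labels, and 4 females and 3 males. Every mouse gave 1 library of total lysate and 1 library of TRAP (translating ribosome affinity purification), so that there were 28 libraries in 4 groups of 7. In TRAP, tagged ribosomes are pulled out of the lysate with the mRNA they carry, and Cx3CR1-Cre sets the tag in cells that express Cx3cr1, which in the brain are microglia and other macrophages. No label gives the age of the animals.

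p53 is a transcription factor that is held low by the ubiquitin ligase Mdm2, itself a p53 target, and that accumulates after DNA damage and other stress. Cdkn1a encodes p21, an inhibitor of cyclin-dependent kinases and the best known mediator of cell cycle arrest by p53, and Ccng1, Btg2, Sesn1, Phlda3, Trp53inp1 and Bbc3 are also transcribed by it in many tissues. Several of these genes have other inducers too, and Btg2 and Plk2 are known as genes that respond to neuronal activity.

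All 10 are protein-coding genes of mouse build GRCm38. Cdkn1a lies at chr17:29090976-29100727 on the plus strand, Trp53 at chr11:69580359-69591873 (plus), Mdm2 at chr10:117688875-117710758 (minus) and Ccng1 at chr11:40748552-40755311 (minus). Btg2 lies at chr1:134075170-134079120 (minus), Phlda3 at chr1:135766119-135769136 (plus), Sesn1 at chr10:41809935-41908424 (plus) and Plk2 at chr13:110395046-110400844 (plus). Trp53inp1 lies at chr4:11156431-11174379 (plus) and Bbc3 at chr7:16308393-16318205 (plus). Cdkn1a shares 273 exon bases with the model AC167363.2 on the opposite strand, and with no stated strand setting for the counting, reads of the pair cannot be told apart there. No other member shares exon bases with another annotated gene.

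The upstream of 2 RefSeq windows of Cdkn1a is shown. It holds the only stretch in the set that exactly matched the pattern of a p53 site of 2 half-sites. RefSeq promoters of build GRCm38.p6, each running from 250 bases before to 50 after a start site, were searched on both strands for the p53 half-site and for pairs of half-sites at most 13 bases apart. The window shown is chr17:29090729-29091028 on the plus strand, 5′ to 3′. Its capitals mark both matched half-sites with the bases between them, and begin 73 bases before the start site of that window. No mismatch was allowed, so that stretches close to the half-site pattern were neither marked nor counted. The bases tgacatgttc, directly after the capitals, are such a stretch, and the capitals need not outline the whole of a p53 site.
Cdkn1a: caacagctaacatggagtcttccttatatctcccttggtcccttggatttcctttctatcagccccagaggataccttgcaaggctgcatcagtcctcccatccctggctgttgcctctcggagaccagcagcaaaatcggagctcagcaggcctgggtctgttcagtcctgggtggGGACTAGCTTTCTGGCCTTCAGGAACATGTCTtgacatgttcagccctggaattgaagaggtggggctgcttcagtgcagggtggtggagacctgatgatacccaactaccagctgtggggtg
Such a pair was found in 24 of 32851 promoters (0.073%), and among the members in Cdkn1a alone. A second RefSeq window of Cdkn1a, chr17:29093519-29093818, held no match.

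Single half-sites, found in 8.36% of promoters, stood in windows of a further 4 members, and the CRE (TGACGTCA, the element bound by CREB, found in 1.79% of promoters) stood in a further 2. They are shown with 8 bases on each side and the motif in capitals, because they are the other letters by which these windows can be set beside that of Cdkn1a.
Trp53, half-site from -75 in chr11:69580109-69580408, plus strand: ccacggaaGGACTTGCCCttacttgt
Mdm2, half-site from -186 in chr10:117710709-117711008, minus strand: tcggatagGAACTTGCCTagcgacca
Ccng1, half-site from -185 in chr11:40755237-40755536, minus strand: acctgcccGGGCAAGCCTtggcactg
Sesn1, half-site from -173 in chr10:41887189-41887488, plus strand: tggccttcAAGCTTGTTTttgctggc
Btg2, CRE from -166 in chr1:134079106-134079405, minus strand: cccaataaTGACGTCAgtgagcga
Plk2, CRE from -62 in chr13:110394794-110395093, plus strand: gctcgccgTGACGTCAcgaggccc
The windows of Phlda3 and Bbc3 held neither motif, and those of all members lacked the CArG box, the element of serum response factor, found in 1.63% of promoters. RefSeq windows were matched for 9 of the 10 members, all but Trp53inp1. These matches describe letters in a window and not binding.

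Total counts ran from 70090518 to 241381845 per library, and the members were counted between 242 and 35600 times per library. Cx3cr1, the gene whose regulatory region drives the Cre, was higher in TRAP than in lysate by 6.92 ± 0.14 (log2 difference ± SE), and Slc17a7, a transporter of excitatory neurons, was lower, at -0.99 ± 0.13. All 10 microglial markers were higher in TRAP, while the summed level of 10 pan-neuronal genes in home cage mice ran from 7820 to 15700 CPM (read counts scaled to library size) in lysate and still from 1830 to 6350 in TRAP. Markers of border-associated macrophages (5 of 5) and of endothelial cells (6 of 6) were also higher in TRAP, and no marker gene of any list was at 0 in every library. In 4 of 28 libraries the X- and Y-linked genes went against the labelled sex, namely both libraries of the cohort 2 run mice labelled Male1 and Female2. Run comparisons within a fraction whose calls change without these 2 mice are given both ways.

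Per kilobase of exon and averaged over the cohorts, Ccng1 and Plk2 were the most abundant members in lysate and Ccng1 and Btg2 in TRAP. Ccng1 did not keep this place in cohort 2. Levels between genes are compared here as CPM per kilobase in the 7 home cage mice, with all libraries scaled together and the means of both cohorts averaged. In lysate Ccng1 stood at 42.4 CPM per kilobase (range 18.4 to 74.8) and Plk2 at 42.4 (33.7 to 57.3), with Ccng1 above Plk2 in 3 of 7 libraries. Phlda3 followed at 25.6, Sesn1 at 16.3, Mdm2 at 8.30, Cdkn1a at 6.44 (2.87 to 9.96), Btg2 at 4.89, Trp53 at 2.67, Bbc3 at 2.61 and Trp53inp1 at 2.05 CPM per kilobase. Sesn1 over Mdm2 was the one step in this order that held in 7 of 7 libraries, so that the order of other neighbours was not fixed beyond the spread. In cohort 2 alone Ccng1 averaged 23.7 CPM per kilobase in lysate, below Plk2 at 34.9 and Phlda3 at 34.7. With the longest transcript in place of all exons as the length, the mean of Plk2 over the 7 libraries moved from 43.4 to 69.7 CPM per kilobase, above the 45.1 of Ccng1, and that of Cdkn1a from 6.02 to 10.3.

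In TRAP the members lay closer together. Ccng1 stood at 34.4 CPM per kilobase, Btg2 at 32.9 (22.5 to 47.7), Sesn1 at 16.5, Cdkn1a at 15.9 (6.58 to 29.5), Phlda3 at 14.1, Trp53 at 11.6, Plk2 at 11.1, Mdm2 at 8.51, Bbc3 at 6.53 and Trp53inp1 at 3.22. Btg2 over Sesn1 held in 7 of 7 libraries, and Cdkn1a stood above Phlda3, its lower neighbour, in 5 of 7. The wide ranges follow the cohorts: Cdkn1a averaged 9.50 CPM per kilobase in TRAP of cohort 1 and 22.3 in cohort 2. Ccng1 averaged 51.3 in cohort 1 and 17.45 in cohort 2. There it stood below Btg2 (40.7), Cdkn1a, Phlda3 (18.0) and Sesn1 (17.65).

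**Figure D1:**
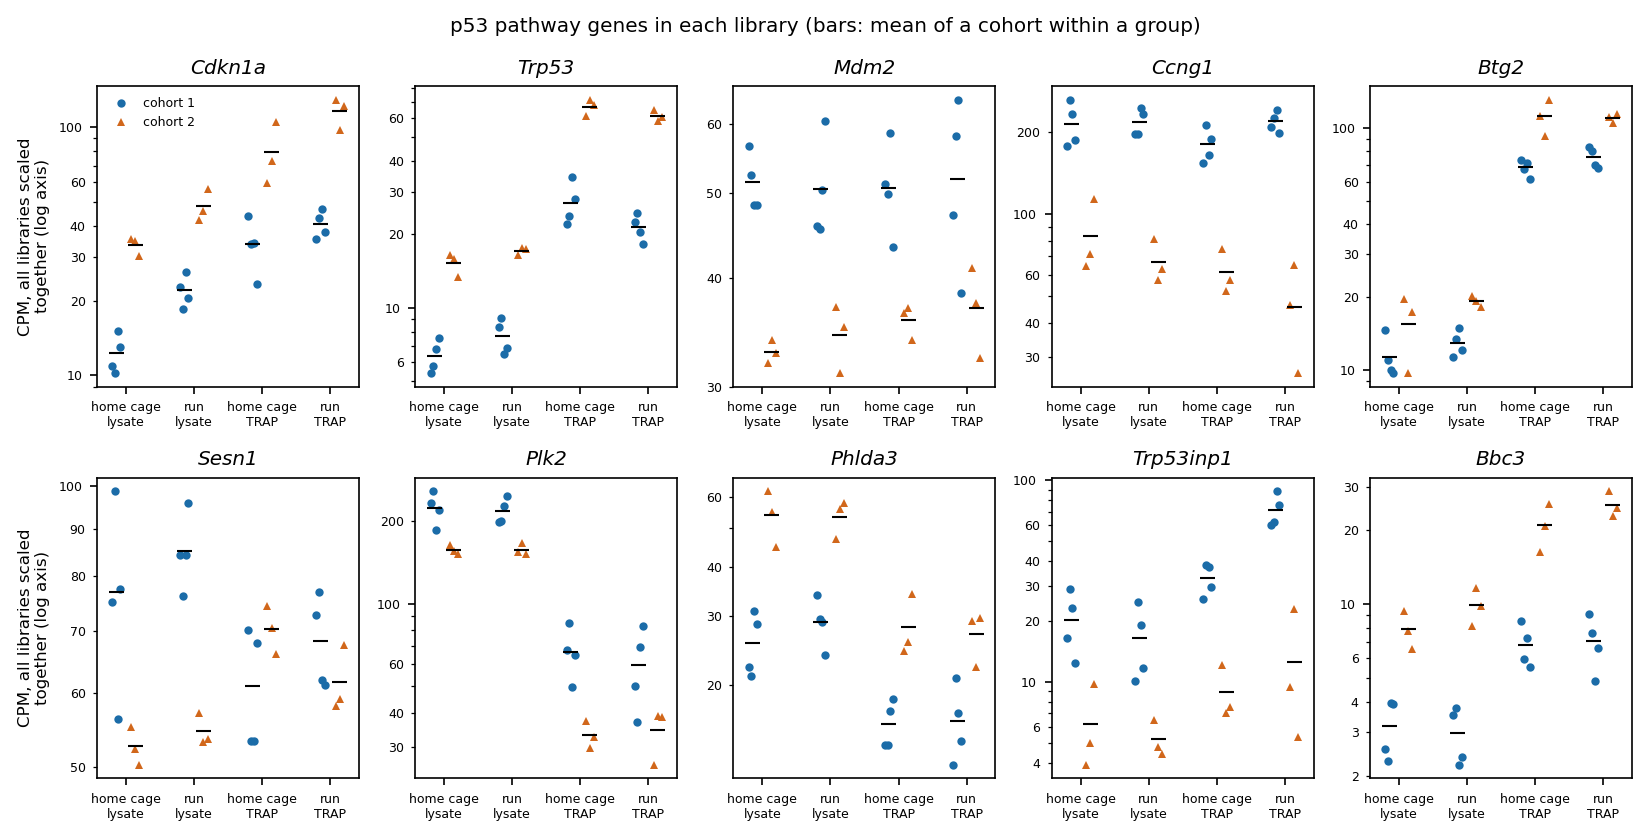
Level of each member in the 28 libraries, in CPM with all libraries scaled together (log axes that differ between panels), by condition and fraction, with circles for cohort 1, triangles for cohort 2 and bars for the mean of a cohort within a group. Trp53, Btg2 and Bbc3 stood higher in TRAP and Plk2 lower in both cohorts, and Cdkn1a, Trp53 and Bbc3 were higher in cohort 2 in every group.

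Against total lysate, 5 of the 10 members were higher in TRAP and 2 were lower. Among all 16880 genes tested 33.8% were higher and 40.1% lower. The median log2 difference was -0.21 over all genes, 0.63 over the members and 0.06 over the members other than Cdkn1a. No member lay near 0.63, which falls between Mdm2 at 0.06 and Trp53inp1 at 1.20. In a whole tissue, fewer cells of a type and less RNA per cell cannot be told apart, and the same holds for the share of a gene's mRNA that comes from microglia. Values in the next paragraphs are CPM with all 28 libraries scaled together, given as lowest, median and highest of 7 libraries. Counts of mice with TRAP above or below lysate are a description, since the share of all genes with such counts was not taken.

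Of the regulators, Trp53 was higher on the tagged ribosomes and the gene of its inhibitor, Mdm2, was not called. In home cage mice Trp53 read 5.41, 7.52 and 16.5 CPM in lysate and 22.0, 34.3 and 71.4 in TRAP, and in run mice 6.47, 9.12 and 17.5 against 18.3, 24.4 and 64.4. Every TRAP library lay above every lysate library, a separation whose share over all genes was not counted. The log2 difference was 1.88 ± 0.09 (3.67-fold, adjusted p = 1.75e-18, edgeR's quasi-likelihood test). Mdm2 ran from 31.9 to 56.6 CPM in home cage lysate and from 33.9 to 58.6 in home cage TRAP, ranges that overlap nearly whole, and differed by 0.06 ± 0.08 (adjusted p = 0.483). With counts corrected for GC content, Mdm2 was higher in TRAP by 0.27 ± 0.08 (adjusted p = 0.00211).

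Of the genes that act on the cell cycle, Btg2 and Cdkn1a were higher in TRAP and Ccng1 was not called. Btg2, an antiproliferative cofactor of mRNA deadenylation, read 9.68, 10.9 and 19.5 CPM in home cage lysate and 61.6, 73.6 and 130.9 in home cage TRAP. It had the largest difference among the members, 2.63 ± 0.09 (6.19-fold, adjusted p = 3.19e-21), with TRAP above lysate in 14 of 14 mice. Cdkn1a read 10.2, 15.1 and 35.4 CPM in home cage lysate against 23.4, 43.9 and 104.8 in home cage TRAP, and 18.6, 26.1 and 56.1 against 35.5, 46.9 and 129.0 in run mice.

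The groups of Cdkn1a overlap because the cohorts differ. Within mice, TRAP lay above lysate in 14 of 14, by 0.64 to 2.01 on the log2 scale, a count not set against all genes. The log2 difference of Cdkn1a was 1.22 ± 0.10 (2.32-fold, adjusted p = 3.56e-12), at 1.18 ± 0.13 in cohort 1 alone and 1.28 ± 0.15 in cohort 2 alone. Ccng1, the atypical cyclin G1 that acts back on Mdm2, stood at a log2 difference of -0.27 ± 0.12 (adjusted p = 0.0509), with TRAP above lysate in 5 of 14 mice. That value sits at the threshold: with the mouse as a block it was -0.29 ± 0.12 (adjusted p = 0.0397), and with the GC correction its sign turned, at 0.11 ± 0.08. It also passed the threshold without any one of home cage replicates 1, 4, 5 and 7 and run replicates 2, 4, 5 and 6, with adjusted p from 0.0266 to 0.048.

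Of the genes that act in stress and survival signalling, Plk2 and Phlda3 were lower in TRAP. Plk2, a polo-like kinase that acts at synapses, read 151.3, 185.4 and 257.5 CPM in home cage lysate and 29.8, 49.5 and 85.3 in home cage TRAP. No TRAP library reached any lysate library, a separation likewise not counted over all genes. The log2 difference was -1.97 ± 0.11 (0.25-fold, adjusted p = 1.91e-16), where the 10 pan-neuronal markers had a median of -1.39. Phlda3, a repressor of the kinase Akt, differed by -0.84 ± 0.09 (adjusted p = 2.52e-09), with TRAP lower in 14 of 14 mice. Whether residual neuronal mRNA in TRAP has a part in these values was not tested.

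Sesn1, a sestrin that restrains mTORC1 under stress, was not called over both cohorts, at -0.05 ± 0.10 (adjusted p = 0.644), but stood on opposite sides of 0 in each. In cohort 1 its log2 ratio of TRAP to lysate ran from -0.89 to 0.02 over 8 mice and was above 0 in 1 of them. In cohort 2 it ran from 0.02 to 0.43 over 6 mice and was above 0 in 6 of them. The cohorts nearly met, at 0.016 for the highest mouse of cohort 1 and 0.023 for the lowest of cohort 2. A test of the difference between cohorts, chosen after the data were seen, gave 0.63 ± 0.15 for Sesn1 (adjusted p = 0.00408). It was the only member called, 1 of 10, which does not exceed the 18.9% of 17612 genes called there. Cohort 1 alone gave -0.32 ± 0.11 (adjusted p = 0.0164) and cohort 2 alone 0.31 ± 0.09 (adjusted p = 0.00732).

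Both genes tied to cell death were higher in TRAP. Bbc3, which encodes the pro-apoptotic BH3-only protein PUMA, read 2.29, 3.97 and 9.38 CPM in home cage lysate and 5.55, 8.52 and 25.6 in home cage TRAP, a log2 difference of 1.27 ± 0.13 (2.41-fold, adjusted p = 4.08e-10). TRAP lay above lysate in 14 of 14 mice for Bbc3. Trp53inp1, a stress-induced protein of autophagy and cell death, differed by 1.20 ± 0.19 (2.30-fold, adjusted p = 2.13e-06), and its per-mouse ratio spread most of all members, from -0.38 to 2.68. In home cage mice it differed by 0.62 ± 0.27 (adjusted p = 0.0453) and in run mice by 1.78 ± 0.28 (adjusted p = 1.96e-06).

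**Figure D2:**
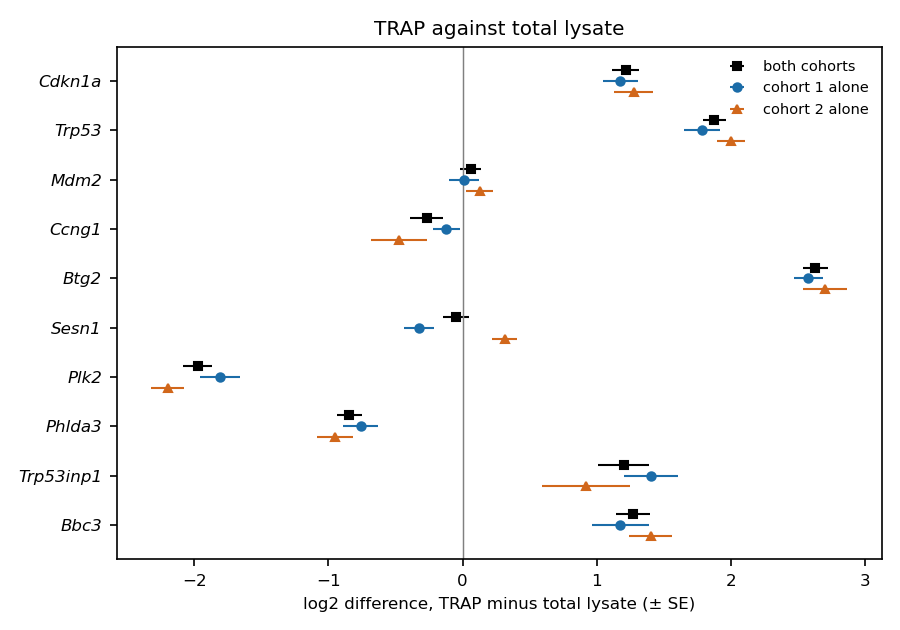
Log2 difference of TRAP minus total lysate for each member (point, edgeR estimate; bar, SE), over both cohorts and in each cohort alone. Btg2, Trp53, Bbc3, Cdkn1a and Trp53inp1 lie right of 0 and Plk2 and Phlda3 left of it in both cohorts, while Sesn1 lies on opposite sides.

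In total lysate Cdkn1a was higher after the run, which is how it was chosen, and 0 of the other 9 members passed the test. Values in this and the following paragraphs are CPM scaled within the fraction. In home cage mice Cdkn1a read 13.0, 12.2, 18.3 and 15.6 CPM in cohort 1 and 41.3, 41.0 and 35.5 in cohort 2. After the run it read 27.0, 22.3, 31.6 and 24.8 CPM in cohort 1 and 49.6, 54.6 and 66.2 in cohort 2. Every run library lay above every home cage library of its cohort, which 0.297% of all genes tested did, and this is the contrast that chose the gene.

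The log2 difference of Cdkn1a in lysate was 0.71 ± 0.12 (1.63-fold), with 0.84 ± 0.18 in cohort 1 by itself and 0.52 ± 0.14 in cohort 2 by itself. With the cohort 2 run mice Male1 and Female2 removed it was 0.74 ± 0.14. The comparison called 5 of 16522 genes (0.0303%), all of them higher after the run, and Cdkn1a is among them by the way it was chosen, so that nothing is read from its call. Even so, it was not called in each single cohort, after removal of those 2 mice, and in 11 of the 14 fits that left out 1 library, while the difference stayed between 0.64 and 0.76 in those 14 fits. The difference between the cohorts' effects was -0.31 ± 0.23 for Cdkn1a, and 0 of 17101 genes (0%) were called there, against 428 at an unadjusted p under 0.05.

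Of the other 9 members, 6 had positive values in lysate, where 50.4% of all genes did. Their median was 0.09, where the median over all genes was 0.002. The standard errors of these 9 ran from 0.08 to 0.24, and 0 of 9 were called by edgeR, DESeq2 or limma-voom. At an unadjusted p under 0.05 there were again 0 of 9, against 7.3% of all genes. Btg2 stood at 0.25 ± 0.14 (adjusted p = 0.709) and Trp53 at 0.23 ± 0.11 (adjusted p = 0.678).

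Trp53 read 6.47, 6.93, 8.20 and 8.98 CPM in home cage lysate of cohort 1 and 19.3, 18.7 and 15.7 in cohort 2, against 9.93, 11.0, 7.84 and 8.26 and 19.4, 20.8 and 20.6 after the run. In cohort 2 every run library lay above every home cage library, as in 4.71% of all genes, and in cohort 1 they overlapped. Mdm2, the target that feeds back on p53, differed by 0.02 ± 0.09 and Plk2 by -0.009 ± 0.08. Sesn1 differed by 0.12 ± 0.10, Phlda3 by 0.10 ± 0.11, Bbc3 by 0.09 ± 0.18, Ccng1 by -0.12 ± 0.14 and Trp53inp1 by -0.27 ± 0.24.

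**Figure D3:**
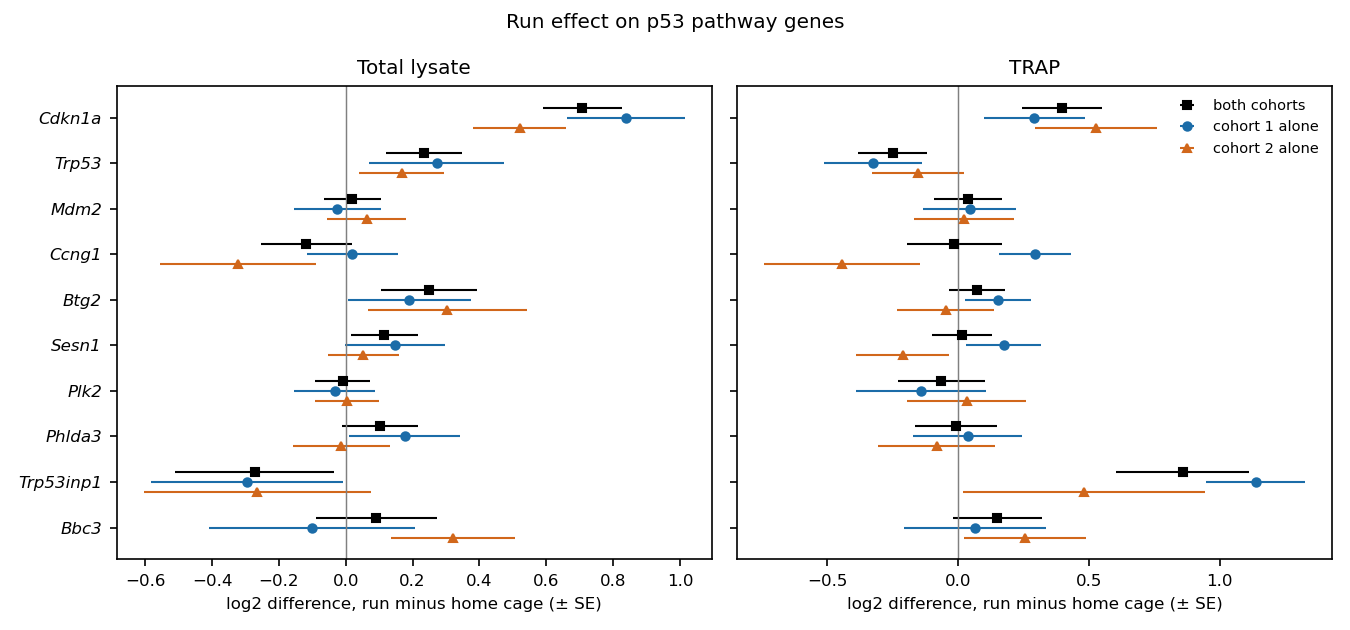
Log2 difference of run minus home cage for each member (point, edgeR estimate; bar, SE) in total lysate and in TRAP, over both cohorts and in each cohort alone. In lysate Cdkn1a, chosen for its value there, lies at 0.71 and the other 9 between -0.27 and 0.25, and in TRAP Trp53inp1 has the highest value, 0.86.

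On microglial ribosomes none of the 10 members passed the test after the run. The comparison called 6 of 15644 genes (0.0384%), among them Tsc22d3, a glucocorticoid-induced gene, at 1.42 ± 0.18 (adjusted p = 0.00324). At an unadjusted p under 0.05 stood 2 members, Trp53inp1 and Cdkn1a, with 3.56% of all genes at that level. Cdkn1a was chosen by its rise in lysate of the same mice, so that its place in this count is not independent of that choice. The median of the members was 0.03 and that of all genes 0.001.

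Cdkn1a in TRAP read 35.2, 27.5, 30.4 and 19.5 CPM in home cage mice of cohort 1 and 28.8, 37.9, 39.1 and 32.2 after the run. In cohort 2 it read 49.3, 62.8 and 88.8 CPM in home cage mice and 107.8, 81.5 and 101.7 after the run. The groups overlapped within both cohorts, and the log2 difference was 0.40 ± 0.15 (1.32-fold, adjusted p = 0.999). No member had every run library above every home cage library of its cohort in TRAP, which 0.173% of genes did.

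Trp53inp1 had the largest run difference in TRAP among the members, and its groups separated in cohort 1. There it read 20.8, 31.2, 33.3 and 24.9 CPM in home cage mice and 48.8, 54.4, 73.6 and 64.4 after the run. In cohort 2, where its level was lower, it read 10.1, 6.02 and 6.39 CPM in home cage mice and 7.92, 19.2 and 4.49 after the run. In cohort 1 every run library lay above every home cage library, as in 1.43% of all genes, while in cohort 2 the groups overlapped and 1 run library, that of the female labelled Female1, stood high.

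The log2 difference of Trp53inp1 in TRAP was 0.86 ± 0.26 (1.81-fold, adjusted p = 0.901), at 1.14 ± 0.19 in cohort 1 alone (adjusted p = 0.165) and 0.48 ± 0.46 in cohort 2 alone (adjusted p = 0.93). Without the 2 cohort 2 run mice whose sex markers went against their label it was 1.20 ± 0.17 and passed the threshold (adjusted p = 0.0135). These mice gave the lowest values of the run group, 7.92 and 4.49 CPM. Their removal left Female1, at 19.2 CPM, as the only run mouse of cohort 2. Both removed mice carry the same condition and cohort labels, and sex was no term in the fit, so that neither fit is preferred here. In lysate of cohort 1 the same gene read 19.8, 34.7, 28.3 and 14.8 CPM in home cage mice and 12.1, 29.9, 23.3 and 14.3 after the run, groups that overlap. A test of whether its run effect differed between the cohorts in TRAP gave -0.65 ± 0.50 (adjusted p = 0.876), where 0 of 16289 genes (0%) were called and 804 had an unadjusted p under 0.05. Over 3 alternative fits, among them that without the 2 mismatched mice, this difference ran from -1.01 to 0.23, so that its sign was not fixed. The fit without those mice rests on Female1 alone for the run in cohort 2.

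**Figure D4:**
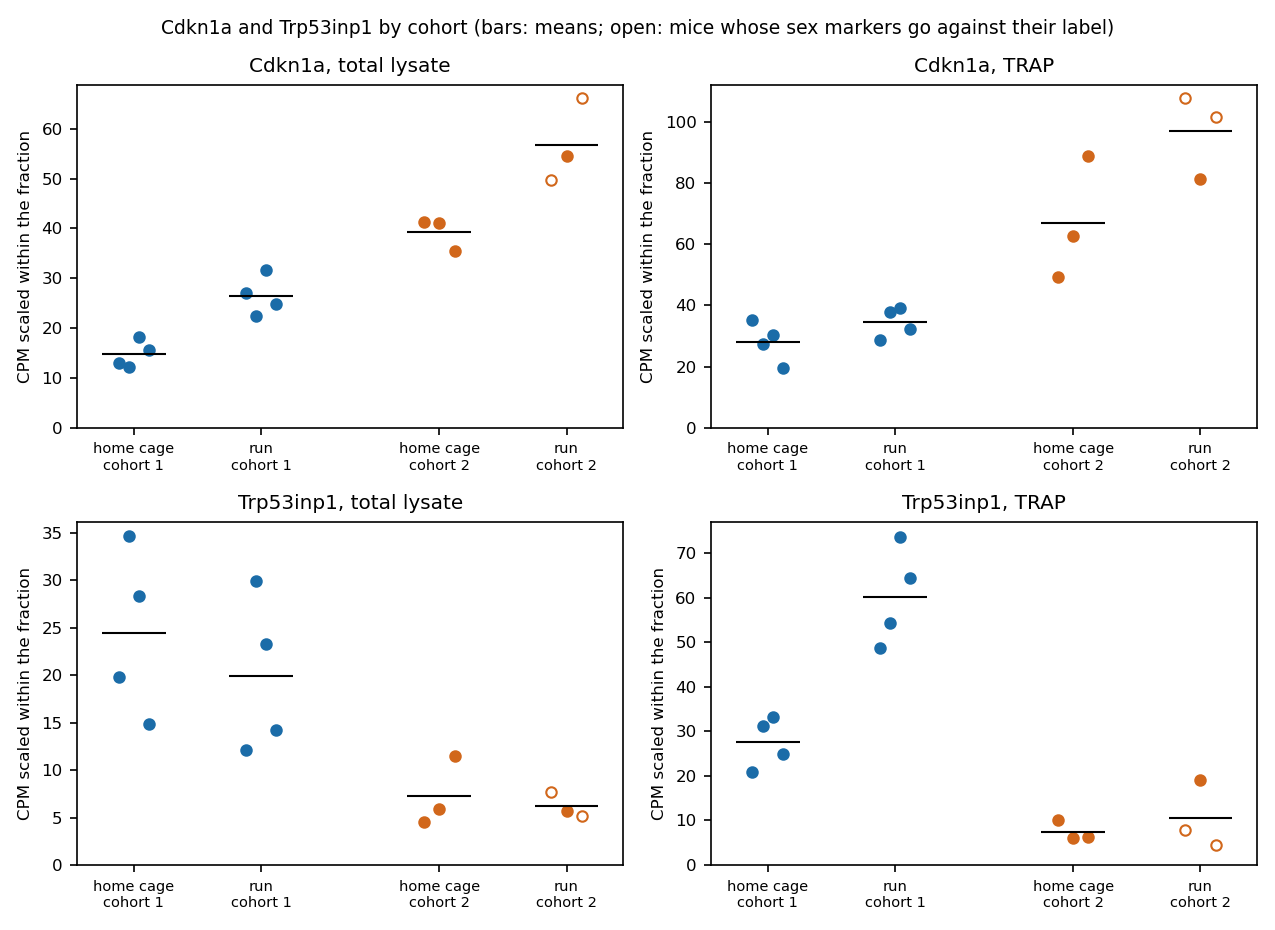
Cdkn1a and Trp53inp1 in each library, in CPM scaled within the fraction, by cohort and condition, with bars for means and open symbols for the 2 mice whose sex markers went against their label. Cdkn1a in lysate is higher after the run in both cohorts, and Trp53inp1 in TRAP is higher in cohort 1, where home cage libraries reach 33.3 CPM and run libraries start at 48.8.

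Among the remaining members in TRAP, Trp53 stood at a log2 difference of -0.25 ± 0.13 (adjusted p = 0.999). It read 17.7, 19.4, 30.6 and 23.3 CPM in home cage mice of cohort 1 and 18.3, 21.5, 17.1 and 15.6 after the run, and 50.9, 61.2 and 57.6 against 53.8, 48.8 and 50.4 in cohort 2, overlapping in both. Bbc3 differed by 0.15 ± 0.17, Btg2 by 0.07 ± 0.11, Mdm2 by 0.04 ± 0.13, Sesn1 by 0.01 ± 0.12, Phlda3 by -0.009 ± 0.16 and Plk2 by -0.06 ± 0.17. Ccng1 differed by -0.02 ± 0.18 over both cohorts, at 0.29 ± 0.14 in cohort 1 alone and -0.44 ± 0.30 in cohort 2 alone, a difference between cohorts of -0.73 ± 0.33 (adjusted p = 0.867). This difference ran from -0.86 to -0.21 over 3 alternative fits, among them that without the mice with mismatched sex markers. In that fit Female1 was the only run mouse of cohort 2.

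Whether the run effect differed between the fractions was tested over all 28 libraries, and 0 of 16880 genes (0%) were called, with 696 at an unadjusted p under 0.05. Trp53inp1 had the largest such difference of the members, 1.16 ± 0.38 (unadjusted p = 0.00496, adjusted p = 0.886), its effect being positive in TRAP and negative in lysate. Trp53 differed the other way, by -0.48 ± 0.17 (unadjusted p = 0.00778, adjusted p = 0.97). For Cdkn1a, whose effect in lysate chose it, the difference was -0.31 ± 0.20, with 0.71 in lysate and 0.40 in TRAP.

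Nearly all members differed in level between the cohorts. In lysate 10 of 10 members differed between cohorts, where 69.6% of all genes did, and in TRAP 9 of 10, where 63.3% did. Bbc3 was higher in cohort 2 by 1.48 ± 0.18 in lysate, Cdkn1a by 1.25 ± 0.12, Trp53 by 1.17 ± 0.11, Phlda3 by 0.94 ± 0.11 and Btg2 by 0.47 ± 0.14. Trp53inp1 was lower by a log2 difference of -1.73 ± 0.25, Ccng1 of -1.57 ± 0.14, Mdm2 of -0.64 ± 0.09, Sesn1 of -0.63 ± 0.10 and Plk2 of -0.53 ± 0.08.

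Among the members the order of these differences largely followed the GC content of the transcripts. Phlda3 (62.6% GC) was an exception, below Cdkn1a (54.4%) and Trp53 (53.3%) in both fractions. No value over all genes is given, so that whether this is particular to the members is not shown. Trp53inp1 (38.8% GC in its longest transcript) and Ccng1 (40.8%) were the lowest in cohort 2, and Bbc3 (65.2%) was the highest. Over the 10 members, which share their libraries and depth, Pearson's r between GC content and the cohort difference was 0.89 in lysate and 0.87 in TRAP, and Spearman's rho was 0.93 in both. Cohort marks mice and their libraries alike, so that differences between animals and between library preparations cannot be told apart.

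**Figure D5:**
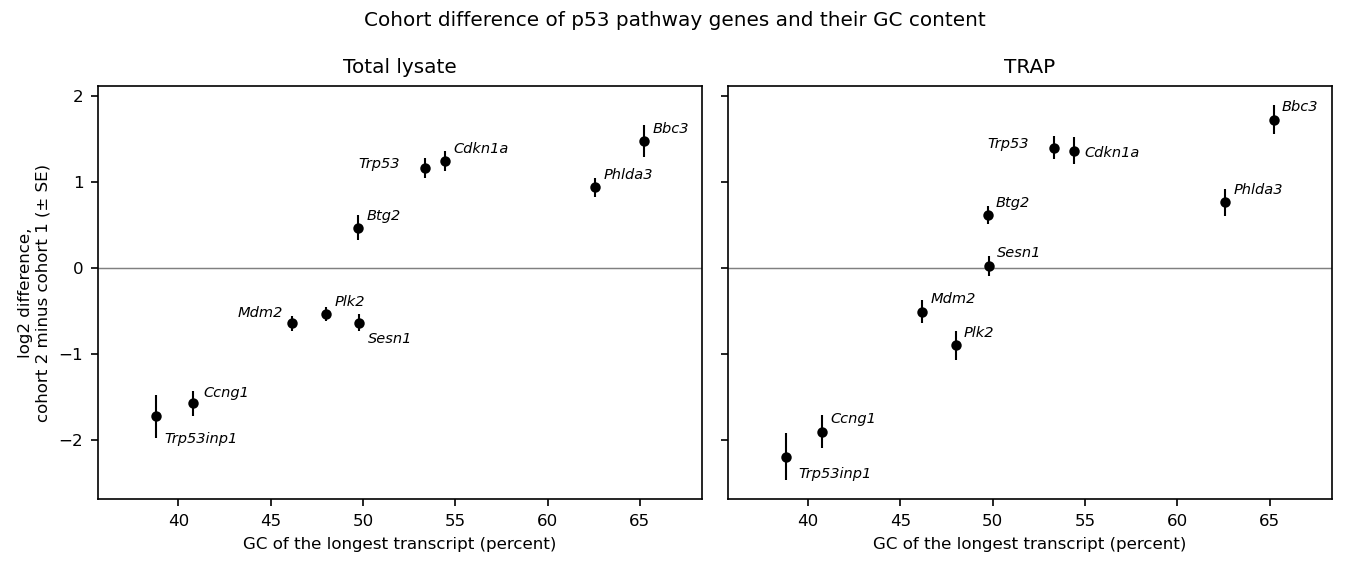
Log2 difference of cohort 2 minus cohort 1 (point, edgeR estimate; bar, SE) against the GC content of the longest transcript of each member, in total lysate and in TRAP. The AT-rich Trp53inp1 and Ccng1 lie lowest and the GC-rich Bbc3 highest in both fractions.

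In wider lists of the pathway 0 genes were called after the run, where 0.0303% of all genes were called in lysate and 0.0384% in TRAP, too few for lists of this size to hold a call at that share. Of 55 other p53 target genes, 54 were tested in lysate with 0 called, 29 positive and a median log2 difference of 0.01. In TRAP 52 were tested with 0 called, 31 positive and a median of 0.06. Over all genes 50.4% were positive in lysate and 50.2% in TRAP. At an unadjusted p under 0.05 stood 5 of the 54 in lysate, near the 7.3% of all genes, and 2 of the 52 in TRAP, near the 3.56% of all genes. Of the regulators and relatives of p53 0 of 28 were called in lysate and 0 of 27 in TRAP, with 2 and 1 at an unadjusted p under 0.05. Of the CDK inhibitors and cell cycle genes that p21 acts on 0 of 22 were called in each fraction, with 2 and 0 at that level, and of the paralogs of the members 0 of 21, with 1 and 0.

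Between the fractions these lists held genes on both sides, to be read against the 33.8% of all genes that were higher in TRAP and the 40.1% that were lower. Of the 54 p53 targets 23 were higher in TRAP, among them Btg1, a paralog of Btg2, at 2.72 ± 0.09, and Tap1, a peptide transporter of antigen presentation, at 4.49 ± 0.19. Another 16 were lower, among them Zfp365 at -1.50 ± 0.14 and Fbxw7, a ubiquitin ligase subunit, at -0.77 ± 0.09. The median of this list was 0.33, against -0.21 over all genes.

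Of the 28 regulators 11 were higher and 9 lower in TRAP, shares near those of all genes. The ribosomal proteins Rpl11 and Rpl5, which bind Mdm2, were higher by 2.02 ± 0.12 and 2.03 ± 0.14, and Trp53bp1, a DNA repair protein that binds p53, was lower at -2.15 ± 0.14. Of the 22 cell cycle genes 15 were higher and 5 lower, with a median of 1.42. The cyclin D1 gene Ccnd1 was higher by 2.77 ± 0.10, Rbl1, a relative of the retinoblastoma gene, by 3.77 ± 0.23 and the CDK inhibitor gene Cdkn1c by 1.95 ± 0.13, while the cyclin E1 gene Ccne1 was lower at -1.93 ± 0.17. Of the 21 paralogs 9 were higher and 7 lower, with the BH3-only genes Bmf at 4.99 ± 0.20 and Bcl2l11 at 2.83 ± 0.13, and Plk5 at -1.64 ± 0.20.

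The correlation of Cdkn1a with other genes across libraries was described for all genes and for the members. The few highest of so many genes would nearly always lie outside so short a list, so that nothing is read from that. Over 28 libraries, with log2 CPM centred within each fraction and cohort, the genes most like it among 11494 were Cxcl14 (Pearson's r 0.80), Dbndd2 (0.79), Mras (0.77), Bet1l (0.77) and Metrnl (0.75). Among the members the highest correlation was that of Phlda3 at 0.40 (rank 1384 of 11494), followed by Bbc3 at 0.34 (rank 1906) and Btg2 at 0.33 (rank 2074). The lowest was that of Ccng1 at -0.29 (rank 9024). Within the fractions the order was another: over the 14 lysate libraries Trp53 had the highest value of the members, 0.60, with Phlda3 at 0.57, whereas over the 14 TRAP libraries Trp53 stood at -0.35 and Bbc3 was highest at 0.54. Trp53 over all 28 stood at 0.15. These libraries share mice, cohorts and the run, and the correlations are a description. Condition was not centred out, so that the run difference that chose Cdkn1a also enters them. With lysate libraries alone 2 of these 5 genes were again among the 5 most like Cdkn1a, and with TRAP libraries alone 0 were.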

How the data were processed

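The authors deposited 1 table of raw read counts, 1 row per symbol, as whole numbers with no normalization. Per the submitters' processing notes the tools were STAR 2.7.7a, featureCounts and DESeq2 on GRCm38, and per the labels' protocols the libraries were made from poly(A) RNA with Nextera XT. The annotation used for counting is not given in the sources used here. Condition, fraction, sex and cohort came from the sample titles, and 0 columns belonged to samples outside the series. Unmarked columns were assigned to cohort 1, whose titles they match in every other label.

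The tests were edgeR 4.0.16 quasi-likelihood tests (R 4.3.3) on these counts, with TMM scaling, filterByExpr, cohort as a covariate and Benjamini-Hochberg adjustment over all genes at 0.05. The run comparison used the 14 libraries of a fraction; the comparison of fractions and of their run effects used all 28. DESeq2 1.42.0, limma-voom (limma 3.58.1), other scaling, no filter, a GC correction, single cohorts and fits without single libraries or mice were alternatives. Scripts were tested on simulated data. CPM were computed with TMM factors, and log2 CPM used a prior count of 2. Lengths and GC content came from GENCODE M21, in which all 10 members were matched.

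TRAP and lysate of a mouse are paired by title. As a check, each mouse's deviations in TRAP and lysate were correlated: r was 0.183 to 0.565 and exceeded 0.1 for 14 of 14 mice around the group mean, but for 2 of 14 with cohort removed as well. Libraries of a group differed by more than sampling noise, with a lowest chi-square per degree of freedom of 69.6. Separate mice are named in the titles, so that p-values of comparisons within a fraction measure spread between mice. The reported fits over all 28 libraries had no term for the mouse. Their p-values thus treat the TRAP and lysate libraries of a mouse as independent, and the mouse as a block was an alternative.

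The members and lists were chosen with earlier results of these data known. All 10 members are named in every comparison, up to 3 called genes per list and direction could be named, with those of smallest p, and the 5 genes most like Cdkn1a, among genes whose mean log2 CPM reached 1 in both fractions.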

Additional observations from a re-analysis of the deposited data

Results flagged for a closer look

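Sesn1 had a ratio of TRAP to lysate that differed between the cohorts, by 0.626 on the log2 scale (cohort 2 minus cohort 1), in a test of that difference itself. That test called 18.9% of all genes. In 40 groups of members and libraries looked at for a single library far from the rest, 0 were found. Each group pooled both cohorts, and the cohort difference widens the range against which a single library was judged. The 0 therefore does not show that no library is outlying.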

How the results depend on the processing

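In total lysate 1 member was called after the run, Cdkn1a, and 0 were called with no cohort term, in cohort 1 alone, in cohort 2 alone or after removal of the 2 run mice of cohort 2 with mismatched sex markers; leaving out single libraries gave 0 to 1. In TRAP 0 members were called, and 1 without those 2 mice (Trp53inp1), while leaving out single libraries gave 0 in each of 14 fits. Without those 2 mice, Female1 was the only run mouse of cohort 2. Cdkn1a was selected on that lysate contrast, so that its count of 1 was fixed by the choice. Between the fractions 7 members were called, and 8 with the mouse as a replicate block, which added Ccng1 and changed no other call. Of 25 alternatives there, Ccng1 was called in 13, Sesn1 in 2 and Mdm2 in 1, and the 7 members called in the reported fit were called in 25. Sesn1 in cohort 2 alone turned to 0.313, a cohort difference whose cause was not tested. The replicate block, and removal of any 1 mouse, also gave 0 calls where run effects of TRAP and lysate were compared. Of the 5 genes most like Cdkn1a, 2 remained with total lysate libraries alone and 0 with TRAP libraries alone. With the longest transcript as the length, the rank of Cdkn1a in TRAP moved from 4 to 3 and levels of Cdkn1a, Mdm2 and Plk2 per kilobase were higher in both fractions. Each member had at least 242 counts in every library, and with 7 mice a condition the standard errors of the run differences ran from 0.08 to 0.26.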
